A study of Mus musculus with 9 samples.

Results

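The 3 arrays that carry the label 1 mg/kg methylphenidate (MPH) were compared with the 3 saline arrays of the same experiment, over all genes on the array. These 6 arrays were chosen by their deposited labels out of 9 in the series, and the others are labelled 10 mg/kg MPH. All mice were Swiss Webster, an outbred stock, and were young when injections began. They received saline or MPH on a school-day schedule for some months and were left without drug for some days before the brain was taken. The substantia nigra was dissected and its RNA was measured with HT MG-430 PM arrays of Affymetrix, with saline, 1 mg/kg and 10 mg/kg as the doses and 3 arrays per group. The labels give neither the sex nor the exact age of the mice, and each sample is described as coming from a mouse. The p-values measure the spread between these arrays. In what follows the groups are called the saline, 1 mg/kg and 10 mg/kg arrays after their deposited labels. Lists published with the study give the names of the 2 doses the other way round, and nothing in the arrays tells which assignment is right.

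MPH is a stimulant that blocks the transporters which return dopamine and noradrenaline to the nerve ending. The substantia nigra of the midbrain holds dopamine neurons that project to the striatum, together with GABA neurons of its reticular part. It is bordered by the thalamus and subthalamic nucleus in front and lies close to the raphe, the site of the serotonin neurons, so a dissected piece can hold more or less of these neighbours. In such bulk tissue, fewer cells of a type and less RNA per cell cannot be told apart.

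The deposited values are log2 intensities, and a log2 difference is always given as 1 mg/kg arrays minus saline unless another order is stated. Medians of the 9 arrays lay between 4.49 and 4.53, and controls without a matching transcript had a median of 2.93, so a value near 3 is no higher than the background. The tissue label fitted the markers. In the saline arrays, the dopamine transporter Slc6a3 had values of 12.09, 12.08 and 11.90, and Gad1, which makes GABA, had values of 12.38, 12.14 and 12.14. Both lay far above the control probe sets in every array.

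The array labelled 1 mg/kg replicate 2 stood apart in sex-linked genes. Xist, the RNA that silences the inactive X chromosome, had values of 4.62, 9.0 and 4.39 in the 1 mg/kg arrays and of 4.15, 2.99 and 4.23 in the saline arrays. The Y-linked gene Eif2s3y had values of 6.87, 4.11 and 6.98 against 6.93, 7.71 and 6.59. Replicate 2 was thus the highest of the 9 arrays for Xist and the lowest for Eif2s3y. The Y-linked genes Kdm5d and Uty were also lowest there, at 4.70 and 3.53. The saline array of the same number and 10 mg/kg replicate 2 had the lowest Xist, at 2.99 in both. Results are therefore also given without 1 mg/kg replicate 2.

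**Figure D1:**
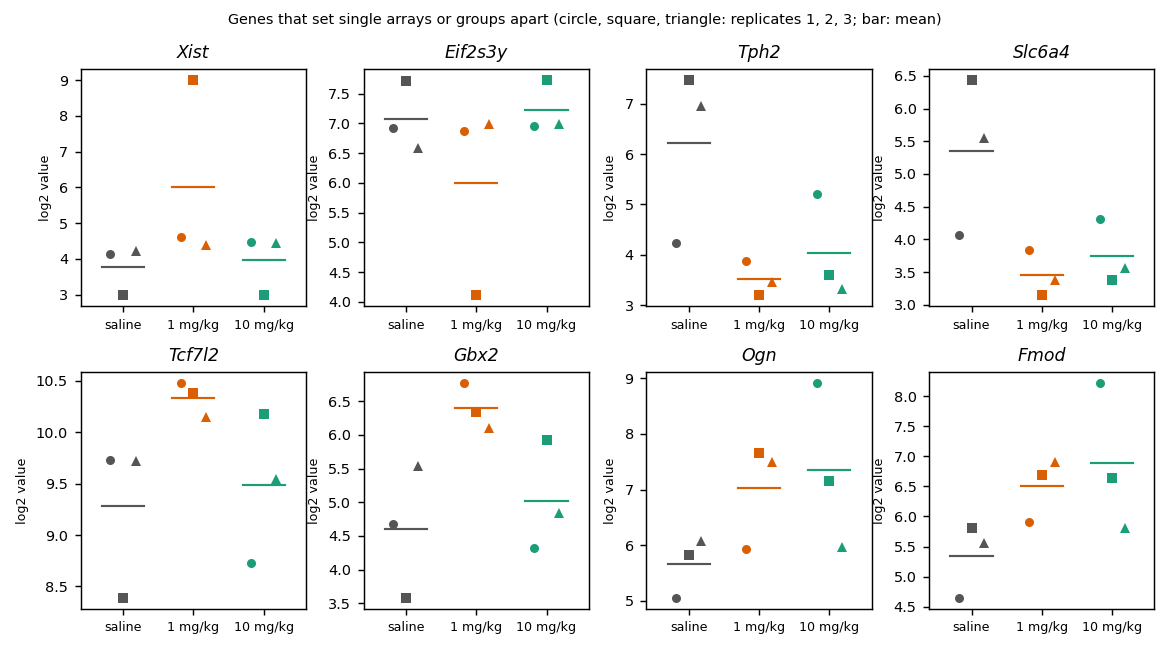
Log2 values (vertical axes) of 8 genes in the 9 arrays by group (horizontal axes), where circles, squares and triangles are replicates 1, 2 and 3 and bars are group means. Xist was at 9.0 in 1 mg/kg replicate 2, and saline replicate 2 had the lowest Tcf7l2 and Gbx2 and the highest Tph2 and Slc6a4.

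With the replicate number as a block, 0 of 45037 probe sets (0%) passed the threshold of 0.05 on the adjusted p in limma, where the smallest adjusted p was 0.163 and 4637 probe sets had an unadjusted p of 0.05 or less. Without the block, limma called 54 probe sets, with 38 lower (0.0844% of all) and 16 higher (0.0355% of all) in the 1 mg/kg arrays. These 54 named 33 genes through 34 single-gene probe sets, while 2 named several genes and 18 named none. In each of the 54, all 1 mg/kg arrays lay apart from all saline arrays. Over all genes they lay above saline for 8.97% and below it for 15.3%. The 54 were picked by p from these same values, which favours such separation. A shared sign within every replicate number follows from the separation. Sizes ran from 0.322 to 1.40 on the log2 scale, and 12 of the 54 had a mean level below the median of all probe sets. All 54 kept their sign, and an unadjusted p of 0.05 or less, without 1 mg/kg replicate 2. That fit reuses the other arrays by which they were picked. Replicate number held 4.16% of the within-group sum of squares, where 33.3% is its share of the degrees of freedom. The p-values without the block may therefore be too small. The count of calls depended on having all arrays. Without the block, 1 probe set was called when 1 mg/kg replicate 2 was left out, between 0 and 6 were called when any of the 6 arrays was left out, and 0 were called when the 10 mg/kg arrays were left out of the fit. The difference between the 3′ and 5′ probe sets of Actb, which grows as RNA degrades, was 0.882 to 0.934 in the saline arrays and 1.04 to 1.19 in the 1 mg/kg arrays, while that of Gapdh overlapped between the groups (0.231 to 0.387 and 0.224 to 0.409). The part of RNA quality in these results was not tested.

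Genes of dopamine neurons made up 5 of the 15 lower genes with the smallest p. Th, tyrosine hydroxylase, which catalyses the rate-limiting step of dopamine synthesis, had values of 11.18, 11.13 and 10.99 in the saline arrays and of 10.31, 10.48 and 10.53 in the 1 mg/kg arrays. The groups did not overlap. The difference was -0.66 (standard error 0.09), and Th fell when the block was left out (adjusted p = 0.0394, limma, and adjusted p = 0.341 with the block). Gch1, which begins the synthesis of the cofactor of Th, had values of 6.97, 7.09 and 7.05 in saline and of 6.07, 6.37 and 6.17 in the 1 mg/kg arrays. That probe set fell by 0.84 on the log2 scale without the block (adjusted p = 0.0218, limma), and a brighter probe set of Gch1 fell by 0.88. With the block, Gch1 had the smallest p of the comparison (adjusted p = 0.163, limma).

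Receptors of these neurons were lower too. Gucy2c, a receptor that makes cyclic GMP and is found on midbrain dopamine neurons, had values of 5.69, 5.82 and 5.36 in saline and of 4.17, 3.99 and 4.51 in the 1 mg/kg arrays, the largest difference among the named genes that passed (-1.40, standard error 0.16, adjusted p = 0.0218 without the block, limma). Chrna6, the nicotinic receptor subunit typical of dopamine neurons, had values of 8.43, 8.51 and 8.24 in saline and of 7.68, 7.72 and 7.75 in the 1 mg/kg arrays. It fell by 0.67 without the block (adjusted p = 0.0251, limma). Sncg, a relative of alpha-synuclein that serotonin neurons express as well, had values of 8.98, 9.23 and 9.11 in saline and of 8.41, 8.48 and 8.44 in the 1 mg/kg arrays. Its arrays lay close together within each group, and Sncg fell by 0.66 without the block (adjusted p = 0.0218, limma).

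The list of dopamine neuron genes as a whole had a median difference of -0.42 over 36 measured genes, compared with -0.02 over all 17097 genes. Values were lower for 28 of the 36 and higher for 8. Over all 17097 genes, 9618 were lower and 7478 higher, and such counts in the lists below are to be read beside these. By unadjusted p (0.05 or less), 20 genes were lower, where 7.4% of all genes were, and 1 was higher, where 3.32% of all genes were. For 23 of the 36 all 3 arrays lay below all 3 saline arrays, as they did for 15.3% of all genes, and for 1 they lay above, as for 8.97% of all genes. The number at an unadjusted p lay between 16 and 20 with any of the 6 arrays left out, and was 18 without 1 mg/kg replicate 2, where the median was -0.42. Without the block, 5 of the 36 genes passed, which were Gucy2c, Gch1, Chrna6, Sncg and Th, all lower, where 16 of all 17097 genes were called lower and 2 higher on their brightest probe set. The log2 of the mean linear value over the list was 9.79 to 9.89 in the saline arrays and 9.60 to 9.62 in the 1 mg/kg arrays.

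The members did not differ to the same extent. Among the transcription factors that specify and maintain these neurons, Nr4a2 differed by -0.71 (standard error 0.27), En1 by -0.63 (standard error 0.18), Foxa1 by -0.52 (standard error 0.16) and En2 by -0.46 (standard error 0.11), all at an unadjusted p of 0.05 or less. Pitx3 differed by -0.26 with overlapping groups, and Lmx1a and Lmx1b were near the level of the control probe sets. The enzymes Aldh1a1 and Ddc, both among the brightest genes of the list, differed by -0.42 and -0.40 (standard errors 0.09 and 0.08). The autoreceptor Drd2 differed by -0.42 (standard error 0.08), and Ret, the signalling receptor of the neurotrophic factor Gdnf, by -0.76 (standard error 0.20). Slc6a3, the target of MPH, had values of 11.79, 11.77 and 11.81 in the 1 mg/kg arrays, below saline in each, but by only 0.23 (standard error 0.09). Its difference was smaller than those of Th, Ddc and Aldh1a1, a gap that was not tested. The vesicular monoamine transporter Slc18a2 shares with Pdzd8 a probe set that fell by 0.55 without the block. Calb1 and Otx2, which mark dopamine neurons of the ventral tegmental area and the dorsal tier, had differences of 0.12 and 0.12, with overlapping groups, and Sox6, of the ventral tier, of -0.15 (standard error 0.08). Of the other members, Slc10a4, Anxa1, Dlk1, Ntsr1 and Foxa2 differed by -0.52 to -0.59 at an unadjusted p, in Foxa2 with overlapping groups, while Satb1, Gfra1, Klhl1, Kcnj6, Bnc2, Ajap1, Cplx1 and Cck lay between -0.16 and 0.21. Vip had the largest difference of those that missed an unadjusted p of 0.05 (-1.26, standard error 0.58), with uneven saline arrays. Ldb2 was the 1 member with higher values at an unadjusted p (0.31, standard error 0.13).

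The upstream region of Th holds a cyclic AMP response element, the letters to which CREB binds. The stretch is shown because Th is the defining gene of the list, and it was read from RefSeq promoter windows of the build GRCm38.p6, which run from 250 bases before to 50 bases after each start. The stretch lies at chr7:142900008-142900065 on the minus strand and is given 5′ to 3′ in the direction of the gene with the element in capitals.
Th: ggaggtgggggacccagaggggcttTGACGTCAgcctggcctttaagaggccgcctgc
The letters TGACGTCA, which read the same on both strands, were in the windows of 1 of 29 dopamine neuron genes with a window and of 2.03% of all 27025 genes. The letters AAAGGTCA, the element of the Nr4a family, were in 2 of the 29 and in 1.7% of all genes on either strand.

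Nicotinic receptor subunits, the parts of the acetylcholine-gated channels, had lower values for 13 of 15 genes (9618 of 17097 over all genes), with a median of -0.10. Chrna6 is described above, and its partner in dopamine neurons, Chrnb3, had values of 5.14, 5.10 and 5.00 in saline and of 4.45, 4.44 and 4.48 in the 1 mg/kg arrays. Chrnb3 differed by -0.62 (standard error 0.11, adjusted p = 0.378 with the block and 0.0621 without it, limma). Chrna5 differed by -0.72 (standard error 0.25) with saline replicate 2 the highest array at 5.62. These 3 were the subunits at an unadjusted p of 0.05 or less, all lower (7.4% of all genes), and Chrna4, the main partner of brain receptors, differed by only -0.07 (standard error 0.12). Most subunits, 10 of 15, had a mean level below the median of all probe sets. In the 10 mg/kg arrays, 11 of the 15 had lower values than the same saline arrays, with a median of -0.12.

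**Figure D2:**
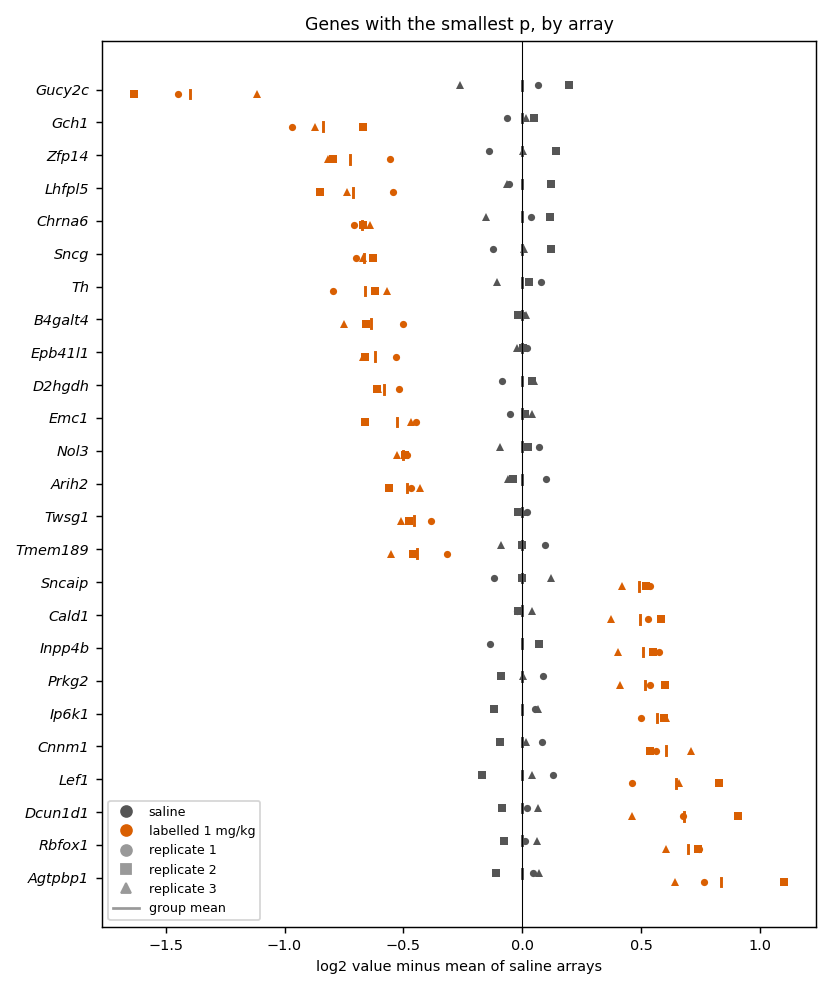
Log2 values minus the mean of the saline arrays (horizontal axis) for the 25 genes with the smallest p and arrays apart from saline (vertical axis). Points are arrays, by group color and replicate shape, and short bars are group means, and all 1 mg/kg arrays lie on the same side of all saline arrays for each gene because the choice of genes required it.

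Of the 25 genes that had the smallest p with arrays apart from saline, 15 were lower and 10 were higher in the 1 mg/kg arrays. The genes below are not in the dopamine neuron list. Epb41l1, a cytoskeletal protein that anchors neuronal receptors, had values of 8.77, 8.75 and 8.73 in saline and of 8.22, 8.09 and 8.08 in the 1 mg/kg arrays, and it fell by 0.62 without the block (adjusted p = 0.0218, limma). B4galt4, a galactosyltransferase of the Golgi, had values of 6.05, 6.03 and 6.06 in saline and of 5.55, 5.39 and 5.30. It fell by 0.64 (adjusted p = 0.0428 without the block, limma). Twsg1, a secreted protein that binds bone morphogenetic proteins, had values of 4.29, 4.25 and 4.27 in saline and of 3.88, 3.79 and 3.76, below the median of all probe sets, and fell by 0.46 (adjusted p = 0.0369 without the block, limma). The 4 probe sets of Twsg1 did not all share a sign.

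The further lower genes had smaller or less even differences. Lhfpl5, a membrane protein of the hair cell transduction complex, fell by 0.71, and D2hgdh, a mitochondrial dehydrogenase of D-2-hydroxyglutarate, fell by 0.58 without the block (adjusted p = 0.0369 and 0.0218, limma). Zfp14, a zinc finger protein, fell by 0.72, Emc1, a subunit of a membrane protein insertase of the endoplasmic reticulum, fell by 0.53, and Arih2, a ubiquitin ligase, fell by 0.49 (adjusted p = 0.0472, 0.0428 and 0.0428 without the block, limma). Nol3, a repressor of cell death, had values of 7.65, 7.61 and 7.49 in saline and of 7.10, 7.09 and 7.06 in the 1 mg/kg arrays, and it fell by 0.50 (adjusted p = 0.0369 without the block, limma). Tmem189, an enzyme of plasmalogen synthesis, differed by -0.44 (adjusted p = 0.0637 without the block) and its other probe set had the other sign.

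Higher genes were led by Rbfox1, a splicing factor of neurons. Rbfox1 had values of 9.95, 9.86 and 10.00 in saline and of 10.68, 10.67 and 10.54 in the 1 mg/kg arrays, and it rose by 0.69 (standard error 0.09, adjusted p = 0.0218 without the block and 0.316 with it, limma). It was the brightest of the higher genes. Agtpbp1, which trims glutamates from tubulin, had values of 3.89, 3.74 and 3.92 in saline and of 4.61, 4.95 and 4.49, and it rose by 0.84 (adjusted p = 0.0472 without the block, limma). Its brighter probe set differed by 0.41. Cnnm1, a protein related to magnesium transporters, rose by 0.60, and Ip6k1, a kinase of inositol hexakisphosphate, rose by 0.57 (adjusted p = 0.0380 and 0.0428 without the block, limma), where Ip6k1 has 5 probe sets that do not share a sign.

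Prkg2, a cyclic GMP-dependent kinase, had values of 4.69, 4.51 and 4.60 in saline, of 5.14, 5.20 and 5.01 in the 1 mg/kg arrays, and of 4.495, 4.59 and 4.63 in the 10 mg/kg arrays. The 1 mg/kg arrays lay above all other arrays. Prkg2 rose by 0.52 against saline (adjusted p = 0.0498 without the block, limma). Cald1, caldesmon, which binds actin, rose by 0.49, and Sncaip, which binds alpha-synuclein, rose by 0.49 (adjusted p = 0.0472 and 0.0498 without the block, limma). Dcun1d1, which promotes the attachment of Nedd8 to cullins, differed by 0.68, Lef1, a transcription factor of Wnt signalling, by 0.65, and Inpp4b, a phosphoinositide phosphatase, by 0.51. Those 3 did not pass without the block (adjusted p = 0.0561, 0.0586 and 0.0512, limma). In all, 18 of the 25 genes have several probe sets, and in 4 of them the probe sets differ in sign.

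Probe sets without a gene name held large differences as well. The unnamed probe set 1456781_PM_at had values of 4.97, 5.25 and 5.31 in saline and of 6.56, 6.47 and 6.28 in the 1 mg/kg arrays, a rise of 1.26 (standard error 0.12, adjusted p = 0.163 with the block, limma), and its values in the 10 mg/kg arrays were 6.45, 6.53 and 6.60. The unnamed 1444617_PM_at had values of 5.20, 5.76 and 5.56 in saline, of 4.30, 4.12 and 4.31 in the 1 mg/kg arrays and of 5.74, 5.59 and 5.55 in the 10 mg/kg arrays. In the first, all arrays of both MPH groups lay above saline, while in the second the 10 mg/kg arrays overlapped saline. Both were among the 54 called without the block.

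Cholesterol synthesis genes tended to lower values than in saline. Cells make cholesterol from acetyl-CoA through the mevalonate pathway, and SREBP2, with the factor NF-Y, drives most of its genes. Values were lower for 15 of 17 measured genes (9618 of 17097 over all genes), with a median of -0.26 compared with -0.02 over all genes. By unadjusted p (0.05 or less), 9 genes were lower (7.4% of all genes) and 1 was higher (3.32% of all genes), and for 10 the arrays lay below all saline arrays (15.3% of all genes). None of the 17 was called with or without the block. Without 1 mg/kg replicate 2 the median was -0.20 with 3 genes lower at an unadjusted p, and with any of the 6 arrays left out that number lay between 2 and 11. The 10 mg/kg arrays had a median of -0.11, with 11 lower and 6 higher.

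Fdft1, squalene synthase, which commits the pathway to sterols, had values of 9.87, 10.15 and 10.02 in saline and of 9.52, 9.36 and 9.61 in the 1 mg/kg arrays. Its difference of -0.52 (standard error 0.12) was the largest of the list (adjusted p = 0.378 with the block and 0.0683 without it, limma). Fdps, which supplies the substrate of squalene synthase, had values of 9.48, 9.66 and 9.59 in saline and of 9.13, 9.16 and 9.33 in the 1 mg/kg arrays, a difference of -0.37 (standard error 0.10). In the mevalonate steps, Mvd differed by -0.44 (standard error 0.16) and Mvk by -0.27 (standard error 0.11). Among enzymes after squalene, Msmo1 differed by -0.35, Nsdhl by -0.31 and Hsd17b7 by -0.20. The last enzymes of the pathway differed little, by -0.05 for Sc5d and 0.01 for Dhcr7. Insig1, which holds SREBP2 back in the endoplasmic reticulum, differed by -0.28 (standard error 0.11), and Stard4, a cholesterol carrier, by -0.21 (standard error 0.09). Hmgcs1, the HMG-CoA synthase, was the exception, with values of 4.95, 4.72 and 4.73 in saline and of 4.97, 5.38 and 5.16 in the 1 mg/kg arrays (difference 0.37, standard error 0.12), from its 1 single-gene probe set, which is much dimmer than those of Fdft1 or Fdps.

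**Figure D3:**
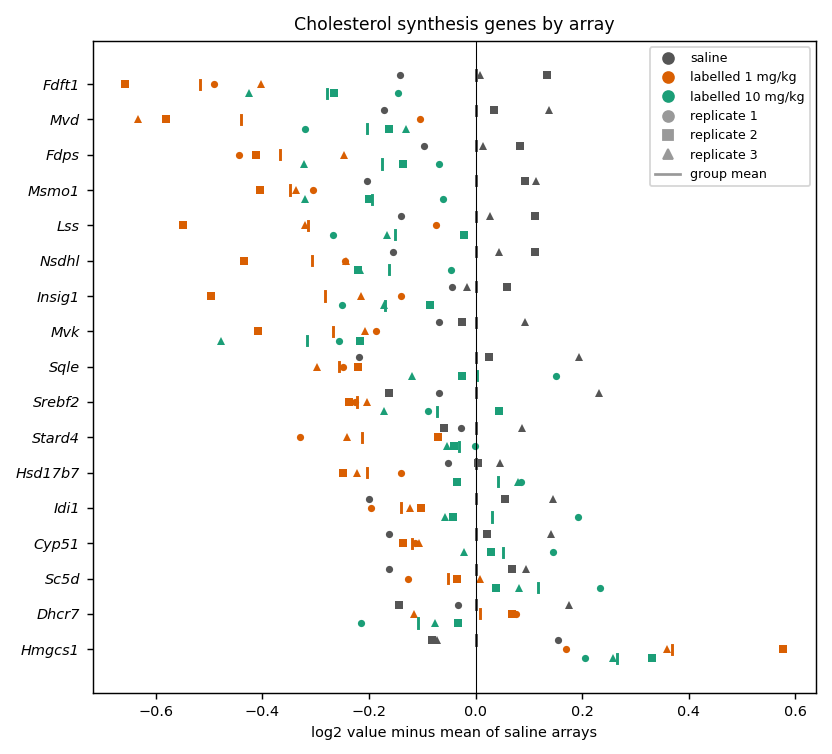
Log2 values minus the mean of the saline arrays (horizontal axis) for the 17 cholesterol synthesis genes (vertical axis) in the 9 arrays. Points are arrays, by group color and replicate shape, and bars are group means, with 15 of the 17 means of the 1 mg/kg arrays below 0 and Hmgcs1 at 0.37.

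Promoters of these genes share short letters. The list is of a pathway that NF-Y drives, so the share of its box does not bear on the differences from saline. The NF-Y box was searched as ATTGGC on both strands and lay in the windows of 10 of the 13 list genes with a window, compared with 16.7% of all genes. The sterol element was searched as TCACNCCAC and lay in 1 of the 13 and in 1.44% of all genes, and the E-box CACGTG lay in 4 of the 13 and in 8.09% of all genes. A match describes letters in the window and is not a measured site. The stretches below hold NF-Y boxes upstream of the start, and the sterol element, in members at an unadjusted p of 0.05 or less. Hmgcs1, Hsd17b7 and Mvk have 2 boxes each. Windows on a further chromosome were passed over when the stretches were taken, so boxes of other members may be missing. Each stretch is given 5′ to 3′ in the direction of the gene. Capitals mark the NF-Y box, or GCCAAT where it lies on the other strand, and in the last stretch the sterol element. Their positions in GRCm38.p6 are chr8:64733709-64733764 for Msmo1, chr1:169969340-169969395 and chr1:169969248-169969303 for Hsd17b7 and chr8:122443423-122443475 for Mvd, all on the minus strand, and chr5:28071171-28071226 for Insig1, chr5:114444071-114444126 and chr5:114444230-114444268 for Mvk, and chr13:119690150-119690205, chr13:119690281-119690336 and chr13:119690189-119690247 for Hmgcs1, all on the plus strand.
Msmo1: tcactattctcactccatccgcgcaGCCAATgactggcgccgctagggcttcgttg
Hsd17b7, farther box: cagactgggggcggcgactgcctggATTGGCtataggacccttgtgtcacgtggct
Hsd17b7, nearer box: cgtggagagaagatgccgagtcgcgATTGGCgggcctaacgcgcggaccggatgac
Mvd: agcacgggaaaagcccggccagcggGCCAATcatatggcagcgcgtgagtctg
Insig1: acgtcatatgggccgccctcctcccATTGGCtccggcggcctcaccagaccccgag
Mvk, farther box: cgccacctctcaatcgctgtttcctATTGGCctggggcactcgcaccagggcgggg
Mvk, nearer box: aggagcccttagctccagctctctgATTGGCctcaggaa
Hmgcs1, farther box: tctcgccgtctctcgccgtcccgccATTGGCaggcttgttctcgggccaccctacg
Hmgcs1, nearer box: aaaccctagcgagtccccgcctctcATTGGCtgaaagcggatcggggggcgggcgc
Hmgcs1, sterol element: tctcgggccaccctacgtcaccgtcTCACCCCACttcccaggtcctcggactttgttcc

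Thalamic genes had the highest median of the 48 lists, at 0.81 over 22 genes, but their level turned on a single saline array. Values were higher for 19 and lower for 3. By unadjusted p (0.05 or less), 6 genes were higher (3.32% of all genes) and 1 was lower (7.4% of all genes), and for 10 all arrays lay above saline (8.97% of all genes). Without saline replicate 2 the median was 0.15 with 4 higher at an unadjusted p, and without saline replicate 1 it was 1.17 with 15. Without 1 mg/kg replicate 2 the median was 0.63 with 3 higher. In the 10 mg/kg arrays the median was 0.02. The log2 of the mean linear value of the list was 8.35 to 8.87 in saline, 8.89 to 9.19 in the 1 mg/kg arrays and 8.35 to 8.95 in the 10 mg/kg arrays, so the 1 mg/kg arrays lay above all saline arrays, though by a small margin over the highest.

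Gbx2, a homeobox factor of thalamic neurons, had values of 4.67, 3.58 and 5.54 in saline, of 6.77, 6.34 and 6.11 in the 1 mg/kg arrays and of 4.32, 5.92 and 4.83 in the 10 mg/kg arrays. The 1 mg/kg arrays lay above the other 6. Gbx2 had the largest difference of the list (1.81, standard error 0.55, adjusted p = 0.416 with the block and 0.128 without it, limma). Tcf7l2, a Wnt factor that is strong in the thalamus, had values of 9.73, 8.39 and 9.72 in saline and of 10.48, 10.38 and 10.15 in the 1 mg/kg arrays, a difference of 1.05 (standard error 0.45). Shox2 had values of 8.75, 5.30 and 8.27 in saline and of 9.23, 9.52 and 8.44 in the 1 mg/kg arrays. Saline replicate 2 was low in each of these genes, as was 10 mg/kg replicate 1, where Shox2 was at 6.20 and Tcf7l2 at 8.73. Lef1 and Slitrk6 had the smallest p of the list, with differences of 0.65 and 0.62 (standard error 0.12 each), and saline replicate 2 lay between the other saline arrays in Slitrk6 but was the lowest in Lef1. Calb2, which marks other neurons as well, was the 1 gene lower at an unadjusted p (-0.77, standard error 0.30).

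**Figure D4:**
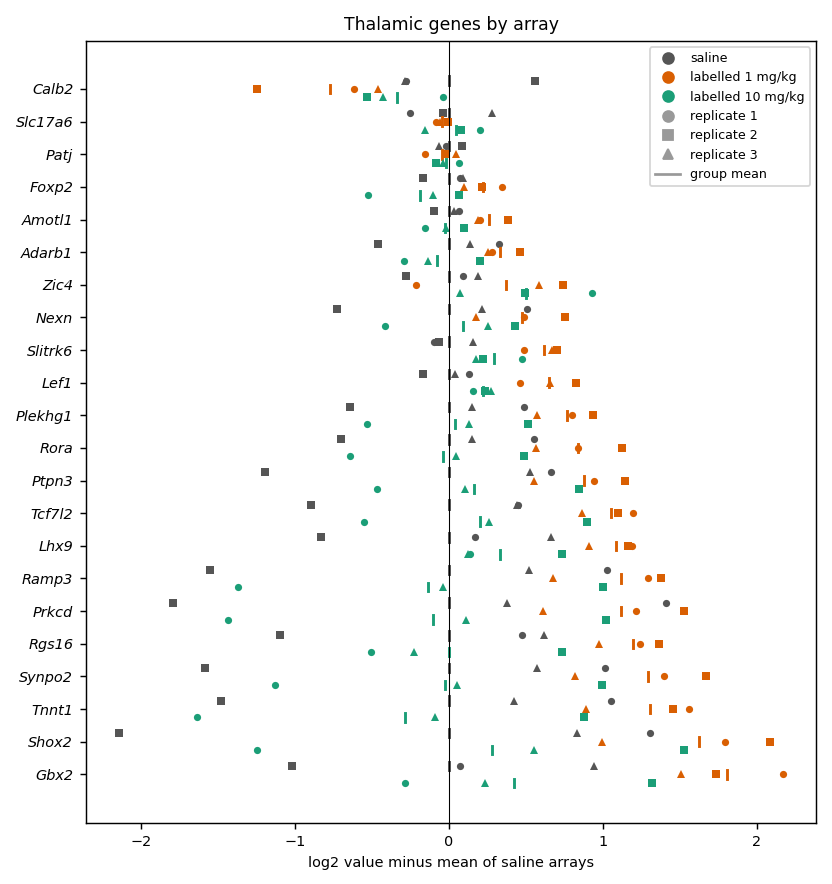
Log2 values minus the mean of the saline arrays (horizontal axis) for the 22 thalamic genes (vertical axis) in the 9 arrays. Points are arrays, by group color and replicate shape, and bars are group means, with saline replicate 2 and 10 mg/kg replicate 1 at the low end for genes such as Shox2, Prkcd and Tnnt1.

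Serotonin neuron genes of the raphe had a median of -0.30 over 12 genes, with 9 lower and 5 of them at an unadjusted p of 0.05 or less (7.4% of all genes). Tph2, the enzyme that makes serotonin in neurons, had values of 4.24, 7.47 and 6.96 in saline and of 3.88, 3.20 and 3.47 in the 1 mg/kg arrays, a difference of -2.71 (standard error 0.85). Slc6a4, the serotonin transporter, had values of 4.07, 6.44 and 5.55 against 3.84, 3.15 and 3.39. In both genes saline replicate 1 lay near the 1 mg/kg arrays, and the other saline arrays lay far above. The 10 mg/kg arrays differed from the same saline arrays by -2.18 in Tph2 and by -1.60 in Slc6a4. Their median for the list was -0.19, with 8 lower and 4 higher. Gchfr, which regulates Gch1, and Htr1a, the serotonin autoreceptor, followed the same order of saline arrays, with differences of -0.87 and -0.97. Sncg is a member of the list as well, with the same order but a far narrower spread of the saline arrays. Without saline replicate 2 the median was -0.11 with 2 genes at an unadjusted p, and without saline replicate 1 it was -0.47 with 7. Without 1 mg/kg replicate 2, Sncg alone had an unadjusted p of 0.05 or less (median -0.24). Gch1, which serotonin neurons also use, had the same order among the saline arrays, and Th, Chrna6 and Gucy2c did not. The part of the dissection in the dopamine neuron genes was not tested.

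Other lists of neurons had medians nearer that of all genes than the thalamic and serotonin lists, and most markers of neighbours were uneven. Striatal projection neuron genes had a median of 0.14, with 3 of 10 higher (3.32% of all genes) and 1 lower (7.4% of all genes) at an unadjusted p. Without 1 mg/kg replicate 2, 0 of these were higher and 1 was lower. GABA neuron genes had a median of 0.18, with 12 of 16 higher and 3 of these at an unadjusted p of 0.05 or less (3.32% of all genes). That number was 0 without 1 mg/kg replicate 1, 1 without 1 mg/kg replicate 2, saline replicate 2 or saline replicate 3, and 5 without saline replicate 1. Dlx1, a homeobox factor of GABA neurons, had values of 5.88, 4.56 and 4.59 in saline and of 6.11, 6.48 and 5.92 in the 1 mg/kg arrays, a difference of 1.16 (standard error 0.43). Dlx2 differed by 0.55 (standard error 0.19) and Gad2 by 0.58 (standard error 0.23), of which Gad2 rested on 1 mg/kg replicate 2, at 7.57 against 7.02 and 6.42 in the other two. Without that array the difference of Gad2 was 0.23, while that of Dlx2 was 0.62. Gad1, the brightest of these genes, differed by 0.17 (standard error 0.14).

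Meningeal and fibroblast genes were higher for 13 of 14, with a median of 0.41, though none had an unadjusted p of 0.05 or less. Ogn and Fmod, matrix proteins of the meninges, differed by 1.37 and 1.17 (standard errors 0.77 and 0.61), and saline replicate 1 was the lowest array in both, at 5.05 and 4.64. Without saline replicate 1 the median of the list was 0.03, without 1 mg/kg replicate 2 it was 0.17, and without 1 mg/kg replicate 1 it was 0.75. The 10 mg/kg arrays had a median of 0.81 for the same list. Genes of the cortex and hippocampus had a median of -0.02 in the 1 mg/kg arrays and of 0.44 in the 10 mg/kg arrays.

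Among neuropeptides and prohormones, 23 of 36 had lower values, near the share of all genes (9618 of 17097). By unadjusted p, 3 were lower and 2 higher, near the shares of all genes (7.4% and 3.32%). Chga, a granin of dense-core vesicles, had values of 10.08, 10.15 and 10.00 in saline and of 9.71, 9.55 and 9.47 in the 1 mg/kg arrays, a difference of -0.50 (standard error 0.08, adjusted p = 0.0561 without the block, limma). Penk, the enkephalin precursor, had values of 8.75, 9.08 and 8.95 against 8.33, 8.45 and 8.51, also -0.50 (standard error 0.09). Both differences kept their size without 1 mg/kg replicate 2, at -0.49 and -0.46. Crh, corticotropin-releasing hormone, had values of 4.39, 4.04 and 5.33 in saline and of 6.05, 5.66 and 5.30, with overlapping groups (1.08, standard error 0.39). Prph, an intermediate filament of motor and sensory neurons, had values of 4.88, 5.56 and 5.06 in saline and of 3.88, 3.97 and 4.11 in the 1 mg/kg arrays, the largest difference of the list of cholinergic and motor neuron genes (-1.18, standard error 0.23, adjusted p = 0.378 with the block and 0.0637 without it, limma).

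Receptor and channel genes had medians near that of all genes. GABA-A receptor subunits had a median of 0.10, with Gabrb2 at 0.32 (standard error 0.11), and ionotropic glutamate receptor subunits one of 0.07, with Gria4 at -0.31 and Grik3 at -0.26. Of 73 potassium channel genes, 4 were lower and 1 was higher at an unadjusted p, both below the shares of all genes (7.4% and 3.32%), and the largest difference among these was that of Kcna5 (-0.58, standard error 0.13). Of 11 sodium channel genes, 3 were lower at an unadjusted p (7.4% of all genes), namely Scn9a, Scn3b and Scn3a, with differences of -0.72, -0.31 and -0.31. Calcium channel genes had a median of 0.00. Clock genes had a median of 0.08 over 19 genes. At an unadjusted p, 1 was higher and 1 was lower, where 3.32% and 7.4% of all genes were. Rorb had values of 7.43, 6.82 and 6.64 in saline and of 7.71, 8.11 and 7.96 in the 1 mg/kg arrays (0.96, standard error 0.21), and Cry2, a repressor of the clock, differed by -0.40 (standard error 0.11).

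Most lists of glial and immune genes showed few differences. Of 17 complement genes, 3 were higher (3.32% of all genes) and 1 was lower (7.4% of all genes) at an unadjusted p of 0.05 or less. For 4 of them all arrays lay above saline (8.97% of all genes). Without 1 mg/kg replicate 2, 0 complement genes were higher and 1 was lower at an unadjusted p. Astrocyte genes had a median of -0.05, microglia genes of -0.07 and myelin genes of -0.06. Of 22 microglia genes, 0 had an unadjusted p of 0.05 or less in limma's fit with the block, where 3.32% of all genes were higher and 7.4% lower, and Aif1, which encodes the microglial marker Iba-1, differed by -0.05 (standard error 0.16). Of 27 cytokine and inflammatory genes, 25 had a mean level below the median of all probe sets, and Ccl7 was the 1 with an unadjusted p of 0.05 or less (0.23, standard error 0.07), at values near those of the controls. Myelin genes Cnp and Trf differed by -0.44 and -0.33 (standard errors 0.16 and 0.12), with 1 mg/kg replicate 2 the lowest of its group in both, and without it by -0.25 and -0.19. Endothelial and mural genes had a median of 0.04, with 11 of 18 higher and 7 lower. Of these, 1 was higher (3.32% of all genes) and 0 were lower (7.4% of all genes) at an unadjusted p of 0.05 or less. Cldn5, a tight junction protein of brain endothelium, had values of 8.43, 8.69 and 8.54 in saline and of 8.87, 9.01 and 8.84 in the 1 mg/kg arrays (0.35, standard error 0.08). Among interferon-induced genes, Lgals3bp differed by -0.52 (standard error 0.11).

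Genes of general cell functions served as a measure of how even the arrays were. Ribosomal protein genes had a median of 0.01 over 67 genes, and oxidative phosphorylation subunits one of 0.03 over 76, in which Cox7b2 stood out at 0.86 (standard error 0.19). Proteasome subunits had lower values for 28 of 37 (9618 of 17097 over all genes), with a median of -0.04. At an unadjusted p, 5 were lower (7.4% of all genes), led by Psmd2 at -0.33 (standard error 0.08). Without 1 mg/kg replicate 2 that number was 1, and over all genes it was 616 in place of 1266. Antioxidant genes had a median of -0.08 over 31 genes, with 5 lower at an unadjusted p (7.4% of all genes), among them the glutathione peroxidase Gpx4 at -0.21 and the glutathione transferase Gstp1 at -0.23 (standard errors 0.08 and 0.07), and 1 without 1 mg/kg replicate 2. Uchl1, a ubiquitin hydrolase abundant in neurons, differed by -0.28 (standard error 0.08), and Xpc, a sensor of DNA damage, by -0.36 (standard error 0.08). Apoptosis genes had a median of -0.06 over 29 genes, with Nol3, Bid, Bbc3 and Bcl2l2 lower (7.4% of all genes) and Bcl2l11 higher (3.32% of all genes) at an unadjusted p, and with 1 lower and 0 higher in limma without 1 mg/kg replicate 2.

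**Figure D5:**
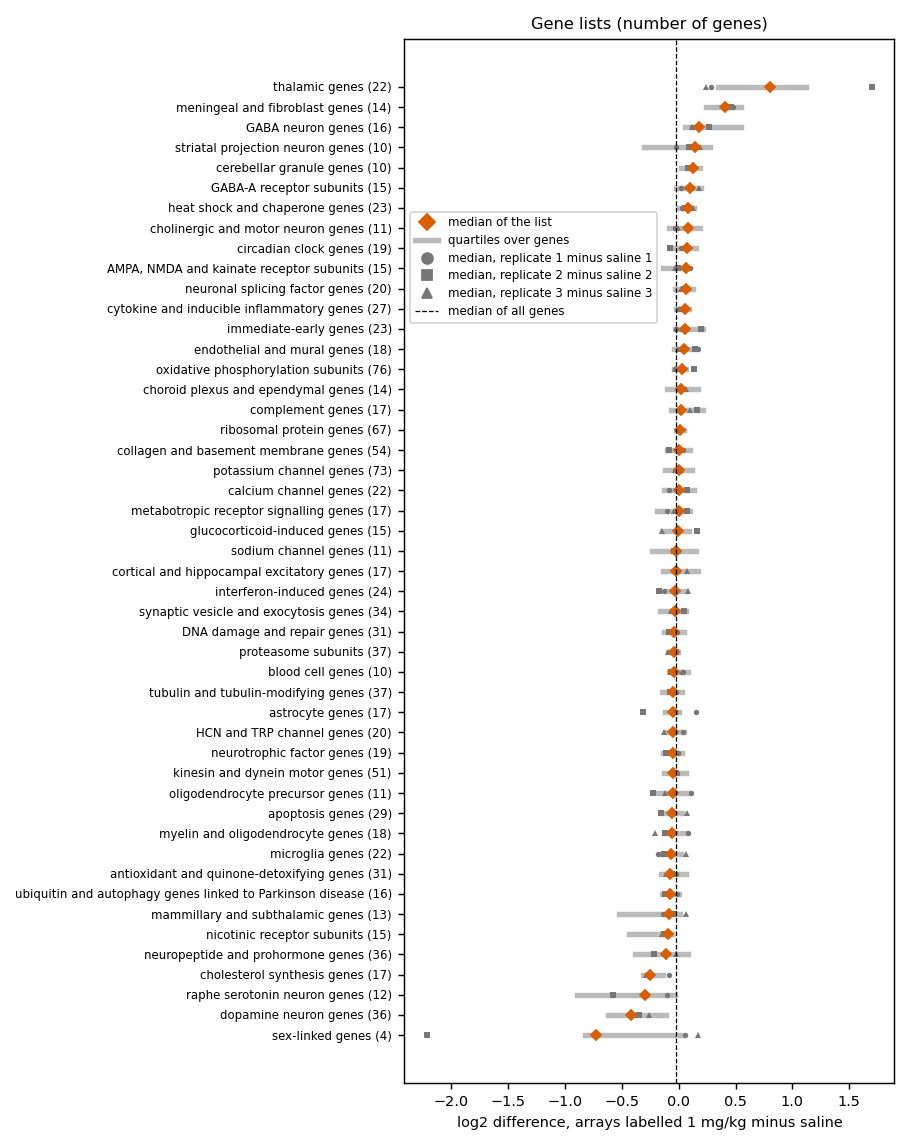
Median log2 difference, 1 mg/kg arrays minus saline (horizontal axis), of each of 48 gene lists (vertical axis, number of genes in brackets), as diamonds with bars for the quartiles over genes. Small points are the medians within each replicate number and the dashed line is the median of all genes at -0.02, where the thalamic genes at 0.81 had the highest median and the dopamine neuron genes at -0.42 the lowest beside the 4 sex-linked genes.

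Some large differences lay outside the lists and were picked after their values were seen. Of 71 probe sets with a difference of at least 1 in size, 41 were higher and 30 lower. Of these, 24 and 17 had arrays apart from saline. Over all genes the shares apart were 8.97% above and 15.3% below, and a choice by size favours such separation. Some of the 71 rested on 1 mg/kg replicate 2. The Xist probe sets, counted among the 24, differed by 1.63, 1.85 and 2.22, and without that array by 0.15, 0.16 and 0.28. Eif2s3y differed by -1.08, and by 0.14 without that array. Unnamed probe sets at -1.87, -1.71 and -1.54 were at -0.12, -0.09 and -0.08 without it. Inpp4a, a phosphoinositide phosphatase, had values of 9.81, 9.09 and 9.63 in saline and of 7.62, 8.74 and 7.82 in the 1 mg/kg arrays. Mbnl3, a splicing factor, had values of 4.64, 5.28 and 5.04 against 3.87, 3.84 and 3.32, and its 2 probe sets among the 71 were both lower. Atp6v0a1, a subunit of the vesicular proton pump, had values of 4.43, 4.02 and 4.40 against 5.05, 5.35 and 5.52. Acot9, a mitochondrial thioesterase, had values of 8.77, 7.76 and 7.76 in saline and of 5.58, 7.83 and 7.72 in the 1 mg/kg arrays, so a single array carried that difference.

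The 1 mg/kg arrays were last compared with the 10 mg/kg arrays, to ask which differences from saline were shared. Between the MPH labels, 0 probe sets passed with or without the block by limma, where the smallest adjusted p was 0.774 with the block and 2879 probe sets had an unadjusted p of 0.05 or less (6.39%). Of the 54 probe sets called against saline without the block, 25 had an unadjusted p of 0.05 or less between the MPH labels, and in 35 the 3 arrays of the 2 labels lay apart, as they did in 18.2% of all probe sets. Both contrasts use the 1 mg/kg arrays, so these counts are not independent. Th had values of 10.45, 10.63 and 10.51 in the 10 mg/kg arrays, overlapping the 1 mg/kg arrays, and Gucy2c had values of 4.70, 4.65 and 4.54, above them. Twsg1 was at 4.24, 4.21 and 4.16 in the 10 mg/kg arrays, near its saline values, with a difference of -0.39 between the labels (1 mg/kg arrays minus the 10 mg/kg arrays). Agtpbp1 was at 4.13, 4.15 and 3.95 in its dimmer probe set, below all 1 mg/kg arrays, but its brighter probe set overlapped between the MPH groups and differed by 0.03. The dopamine neuron genes had a median of -0.31 against the same saline arrays in the 10 mg/kg arrays, and a median of -0.06 between the labels.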

How the data were processed

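RNA of the substantia nigra was measured on 9 arrays in 3 groups of 3. The authors made the deposited log2 values with Robust Multichip Average (version not given in the sources used here). Their methods also name ComBat for the 3 replicates, and whether it is in the deposited log2 values is not stated. After 104 controls were left out, 45037 probe sets remained, of which 28898 named a single gene, 551 several and 15588 none by the platform annotation (28689 matched the reference, 0 symbols changed).

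All 9 arrays were fitted in limma 3.58.1 (R 4.3.3) with group and replicate number, with Benjamini-Hochberg adjustment over all probe sets at 0.05, after testing on simulated data. The block follows the batch named in the methods. Replicate number held 4.16% of the within-group sum of squares, where 33.3% is its share of the degrees of freedom, and same-numbered arrays correlated at -0.626 to -0.132. Residual degrees of freedom were 4 with the block and 6 without. If replicate means were removed before deposit, the 6 are too many and the p-values without the block are too small. This was not tested.

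Each gene in a list is represented by its brightest probe set. Up to 15 lower and 10 higher genes, up to 3 genes per list with the smallest p and fixed markers were named. Other list members were named after their values were seen. The comparison and the lists were chosen with earlier results of these data known. Alternatives were block, normalization, dim probe sets, trend, weights and left-out arrays. The number of arrays limits precision.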

Additional observations from a re-analysis of the deposited data

Results flagged for a closer look

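Arc, an immediate-early gene of synaptic activity, lay on opposite sides of saline in the 2 MPH groups. Its values were 4.47, 4.46 and 4.70 in the saline arrays, 4.31, 4.31 and 4.26 in the 1 mg/kg arrays, and 4.91, 4.76 and 4.72 in the 10 mg/kg arrays. The difference between the 1 mg/kg arrays and the 10 mg/kg arrays was -0.501, all of the former being below and all of the latter above every saline array. This difference did not pass in limma (adjusted p = 0.774 with the replicate block and 0.109 without it).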

How the results depend on the processing

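Without the replicate block 54 probe sets passed and 8333 had an unadjusted p of 0.05 or less. An intensity trend with the robust option called 2. With the block, 0 passed with the 6 arrays of the comparison alone, a second quantile normalization, median centring, array weights, or dim probe sets left out, where 2591 of the fewer probe sets had an unadjusted p of 0.05 or less. With the block and each array left out in turn, 0 to 1 passed and 2652 to 4836 had an unadjusted p, the lowest number being that without 1 mg/kg replicate 2. Fits without the block that left out an array, or used only the 6 arrays, were added after the data were seen. They called 6, 0 and 3 probe sets without saline replicates 1, 2 and 3, and 0, 1 and 0 without replicates 1, 2 and 3 of the 1 mg/kg arrays, so the 54 calls rest on all arrays, and 7307, 6227, 7013, 8430, 5792 and 6785 had an unadjusted p in the same order. With the 6 arrays alone and no block, 0 passed and 7718 had an unadjusted p. Between the MPH labels 0 passed, except 1 in each fit without the block that left out saline replicate 1 or saline replicate 2. The leave-out fits borrow the spread of the other groups.

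Of 321 settings of the named genes, 0 reversed a sign and 21 brought a gene past the threshold, all without the replicate block. Of 480 list medians under an alternative, 82 moved by more than the spread between arrays. The meningeal median was 0.312 with all probe sets of a gene averaged, 0.431 with brighter genes, and 0.0337 to 0.753 with an array left out. The thalamic median was 0.145 to 1.17 with an array left out, and those of dopamine neuron genes, cholesterol synthesis genes and serotonin neuron genes were -0.424 to -0.367, -0.320 to -0.184 and -0.468 to -0.112. The cause was not tested. With the block no difference of any size passed, and without it the smallest difference called was 0.322 in size. The median standard error was 0.0948, and differences near it were not detectable with this number of arrays.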
